A study of Mus musculus with 21 samples.

Results

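Expression of 10 epithelial stress and barrier genes was followed in mouse lung after 1 aspiration of a fungal antigen extract, of albumin or of vehicle into the trachea. The genes are Fosl1, Prss22, Cldn4, Sfn, Ccl20, Artn, Gjb2, Krt15, Dsc2 and Fgfbp1, 10 of 12393 genes that the arrays named. They were chosen by their measured levels at 3 h, which stood above vehicle both after the extract and after albumin, so the 3 h comparisons and the changes from 3 h are given as a description with no test. The platform annotation tied 12 of 22626 probe sets to them, and the brightest probe set of a gene stands for it.

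All lungs came from female BALB/c mice aged 8 weeks, and RNA was taken from the whole homogenized left lung. The mice received 20 µg of MACA (crude antigen of the fungus Metarhizium anisopliae) in 50 µl of Hank's balanced salt solution (HBSS), 20 µg of bovine serum albumin (BSA) in the same volume, or 50 µl of HBSS alone, the vehicle that every group shares. Lungs were taken 3 h or 12 h later, which gave 6 groups on 21 arrays. At 3 h there were 4 arrays for MACA, 3 for BSA and 3 for HBSS, and at 12 h there were 3 for MACA, 4 for BSA and 4 for HBSS. Per the labels every array is its own biological replicate, and lungs without an aspiration were not analysed here. Values are log2(intensity + 16) after the arrays were brought to one distribution. On this scale 4.00 is the floor (an intensity of 0 or less) and 5.83 is the noise level, below which a value is only an upper bound. Levels of different genes cannot be ranked, because each probe set binds its own target with its own strength.

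The deposited intensities had a median of 93.0 to 287 per array. How many arrays a group holds sets how precise its values are. The ratio of a pair of probe sets for 1 spiked hybridization control split the arrays into 13 with a high ratio (1.62 to 1.91) and 8 with a low one (0.939 to 1.22), called here the high and the low technical set. To the low set belonged every HBSS array of 12 h, together with replicates 3 and 4 of MACA at 3 h and of BSA at 12 h. The tissue label was checked against marker genes, and all 11 alveolar and all 9 airway secretory and ciliated markers measured lay over the noise level in every group. Whole lung holds many cell types, and in such tissue fewer cells of a type and less RNA per cell cannot be told apart.

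Airway and alveolar epithelium responds to injury by remodelling its junctions, releasing chemokines and growth factors and switching on transcription factors of the AP-1 family. Fosl1 (Fra-1) is an AP-1 subunit that follows growth factor and ERK signalling, and several of the other genes are known from wounded, squamous or activated epithelium. Claudins and connexins seal and couple neighbouring cells, desmocollins hold desmosomes together, and the chemokine Ccl20 draws dendritic cells and lymphocytes that carry its receptor Ccr6.

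At 3 h all 10 genes stood above vehicle after MACA and after BSA alike, with no overlap between either group and the vehicle lungs. Over the 10 genes the median difference from HBSS was 2.63 (log2) after MACA and 2.43 after BSA, while the median over all 12393 genes was -0.02 and -0.01. Groups that did not overlap, with the agent above vehicle, occurred in 10.1% of all genes for MACA, in 8.80% for BSA and in 3.49% for both. Since the genes were chosen for this pattern, nothing is read from that count. The comparisons with HBSS share the same 3 vehicle arrays.

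Among the regulators, Fosl1 read 7.63, 7.54, 7.63 and 7.99 after MACA at 3 h, 7.57, 8.11 and 7.93 after BSA, and 4.22, 4.00 and 4.00 after HBSS. The vehicle arrays lay at or near the floor and the other 7 far above it, with MACA and BSA overlapping. Fosl1 was at least 3.65-fold higher after MACA and at least 4.12-fold higher after BSA, where "at least" sets the mean of the bright group against the noise level. Its second, dimmer probe set gave at least 1.72-fold and at least 1.29-fold. Sfn, the 14-3-3 protein sigma that holds cells before mitosis, read 8.18, 8.11, 8.86 and 9.03 after MACA, 8.42, 8.26 and 8.79 after BSA, and 5.37, 4.26 and 5.42 after HBSS. The 2 MACA arrays of the low technical set were the higher ones, and the other 2 also lay above every vehicle array. Sfn was at least 6.56-fold higher after MACA and at least 6.32-fold higher after BSA.

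Of the secreted members, Ccl20 read 9.16, 9.03, 8.61 and 9.69 after MACA, 8.53, 8.63 and 9.42 after BSA, and 4.72, 4.98 and 4.00 after HBSS. Its log2 differences from vehicle, 4.55 ± 0.88 (SE) and 4.29 ± 0.94, set the agents against vehicle arrays that were all under the noise level. As bounds they came to at least 9.78-fold and at least 8.16-fold. Every SE of a difference uses one spread shared by all 6 groups, the 12 h groups included. Artn is artemin, a ligand of the GDNF family that signals to sensory neurons through Gfra3. It read 6.82, 6.81, 7.11 and 7.63 after MACA, 6.95, 6.97 and 7.07 after BSA, and 4.72, 4.43 and 4.75 after HBSS. All 7 arrays of the agents lay over the noise level and all 3 vehicle arrays under it, at least 2.39-fold and 2.24-fold apart. Fgfbp1 is a secreted carrier that frees fibroblast growth factors from the matrix, and it lay well over noise in every array. It read 10.08, 9.67, 10.25 and 10.11 after MACA, 10.42, 10.12 and 10.25 after BSA, and 9.40, 9.07 and 9.01 after HBSS. The difference from vehicle was 1.82-fold (log2 0.87 ± 0.13) after MACA and 2.15-fold (1.10 ± 0.14) after BSA.

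Prss22, a tryptase-like serine protease of airway epithelium, read 9.56, 9.58, 8.88 and 9.15 after MACA, 9.31, 9.59 and 8.89 after BSA, and 5.38, 5.68 and 4.91 after HBSS. Both agents gave nearly the same mean, 9.29 ± 0.34 (SD, n = 4) and 9.27 ± 0.36 (SD, n = 3), and every vehicle array was under the noise level. The bounds on its fold, at least 11 after MACA and at least 10.8 after BSA, were the highest among the 10 genes.

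The junction genes stood at different distances from vehicle. Cldn4, a claudin of tight junctions, read 8.73, 8.28, 8.94 and 8.88 after MACA, 8.79, 7.76 and 8.64 after BSA, and 6.07, 5.73 and 5.90 after HBSS. BSA replicate 2 was the lowest of the 7 agent arrays and still above every vehicle array. The difference was 7.01-fold (2.81 ± 0.64) after MACA and 5.64-fold (2.50 ± 0.69) after BSA. Gjb2, connexin 26 of gap junctions, read 7.86, 7.75, 8.20 and 8.42 after MACA, 8.21, 8.28 and 8.34 after BSA, and 6.15, 6.75 and 6.66 after HBSS. These were all over the noise level, 2.90-fold (1.54 ± 0.19) and 3.38-fold (1.76 ± 0.20) above vehicle. Dsc2, a desmosomal cadherin, stayed low at 5.10, 4.92, 5.02 and 5.38 after MACA, 5.12, 5.86 and 4.79 after BSA, and 4.00, 4.27 and 4.00 after HBSS. BSA replicate 2 was the only one of these 10 arrays over the noise level, so no fold is given. The second probe set of Dsc2 was above vehicle without overlap after BSA but overlapped with vehicle after MACA.

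Krt15, a type I keratin of basal epithelial cells, was at the floor in every HBSS array and in every 12 h array. At 3 h it read 5.40, 5.17, 6.45 and 6.85 after MACA and 5.23, 6.20 and 6.08 after BSA, so that 4 of these 7 arrays passed the noise level. The 2 MACA arrays over it were those of the low technical set. Since both agent groups also held arrays under the noise level, no fold is given for Krt15.

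**Figure D1:**
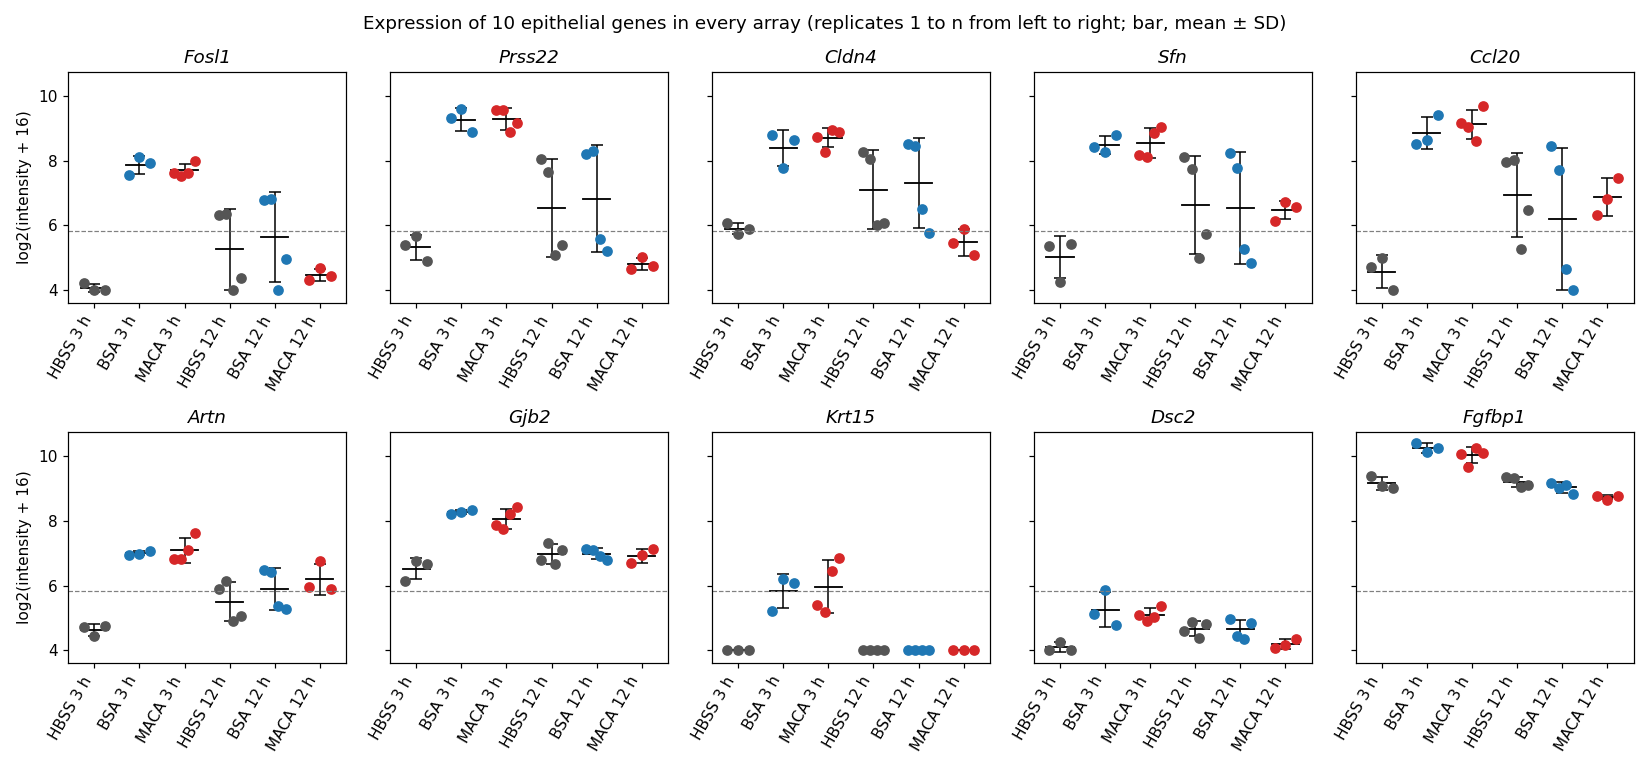
Each panel plots 1 gene as log2(intensity + 16) for every array in the 6 groups, with the mean and SD of each group as a bar and the noise level (5.83) as a dashed line. At 3 h MACA and BSA lie together above HBSS in all 10 panels, and at 12 h the BSA and HBSS arrays of Fosl1, Prss22, Cldn4, Sfn, Ccl20 and Artn lie in 2 tiers with replicates 1 and 2 on top.

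Between MACA and BSA at 3 h the log2 differences of the 10 genes ran from -0.24 (Fgfbp1) to 0.31 (Cldn4), with 6 higher after MACA and 4 higher after BSA. The groups overlapped for all 10 genes, while 8.30% of all genes had MACA above BSA and 9.40% had it below without overlap. The 95% interval of the difference ran from -1.04 to 1.67 for Cldn4 and from -0.52 to 0.04 for Fgfbp1, so a difference between the agents within those limits cannot be told from none by this fit. Its intervals use one spread shared by all 6 groups, which for Cldn4 is wider than the spread at 3 h. The SD of Cldn4 was 0.30 in MACA and 0.56 in BSA at 3 h, against 1.39 in BSA and 1.23 in HBSS at 12 h. The second probe set of Dsc2 read 0.97 ± 0.28 lower after MACA than after BSA, also with overlapping groups. The direction for Prss22, 0.03 higher after MACA, became -0.04 with no scaling between arrays.

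Because the members stood high together, their promoters were searched for 2 motifs of factors that act in stressed epithelium. The RefSeq promoter table (build GRCm38.p6, 250 bases before to 50 after each start) held 6 of the 10 genes: Cldn4, Sfn, Ccl20, Artn, Gjb2 and Fgfbp1. The AP-1 motif TGANTCA, read on both strands, occurred in 1 of the 6, Cldn4, with matches that begin at -240 and -158 from the start, and in 7.81% of all 32851 promoters. The NF-kB motif GGGANNNNCC, which shares no bases with an AP-1 match in these promoters, occurred in 2 of the 6, Ccl20 (at -81) and Gjb2 (at -196 and -95), and in 20.7% of all promoters. A match is a description of the letters, not a shown binding site, and Sfn, Artn and Fgfbp1 held neither set of letters in this window. The 250 bases before the start are printed for the 3 genes with a match, because these letters are what sets them apart among the 6, with the motif in capitals.
Cldn4 (chr5:134946935-134947184, minus strand): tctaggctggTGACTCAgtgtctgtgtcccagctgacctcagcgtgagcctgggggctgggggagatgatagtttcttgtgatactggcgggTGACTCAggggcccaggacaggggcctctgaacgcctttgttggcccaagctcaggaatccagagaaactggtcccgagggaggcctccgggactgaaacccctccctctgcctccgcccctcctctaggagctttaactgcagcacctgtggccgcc
Ccl20 (chr1:83116516-83116765, plus strand): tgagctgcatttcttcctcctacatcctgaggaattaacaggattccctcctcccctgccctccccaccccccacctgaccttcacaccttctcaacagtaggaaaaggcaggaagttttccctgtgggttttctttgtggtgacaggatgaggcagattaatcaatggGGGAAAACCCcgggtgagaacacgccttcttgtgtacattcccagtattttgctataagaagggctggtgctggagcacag
Gjb2 (chr14:57104703-57104952, minus strand): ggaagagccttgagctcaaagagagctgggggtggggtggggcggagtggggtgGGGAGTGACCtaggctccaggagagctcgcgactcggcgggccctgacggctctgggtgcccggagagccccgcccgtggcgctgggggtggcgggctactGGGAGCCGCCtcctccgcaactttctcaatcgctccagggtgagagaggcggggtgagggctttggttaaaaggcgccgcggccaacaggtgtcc

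By 12 h the genes stood below their 3 h levels in both agent groups, while in the vehicle group most overlapped with 3 h. After MACA all 10 were lower at 12 h than at 3 h without overlap, against 9.98% of all genes, with a median log2 difference of -2.02 (0.00 over all genes). After BSA all 10 were lower, 8 of them without overlap against 5.95% of all genes, with a median of -1.57. In vehicle lungs 9 of 10 were higher at 12 h, with a median of 1.03, and 3 did not overlap with 3 h (Ccl20, Artn and Dsc2), against 13.5% of all genes. The choice of members by their 3 h levels sets part of these shifts, so they carry no test. The 12 h level of the BSA and HBSS groups was also not one level but a wide range.

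In vehicle lungs at 12 h, Prss22 read 8.04, 7.64, 5.08 and 5.39 in replicates 1 to 4, and in BSA lungs 8.21, 8.31, 5.59 and 5.20. Replicates 1 and 2 of both groups were far over the noise level and replicates 3 and 4 under it. Sfn repeated that order, with 8.10, 7.74, 4.98 and 5.73 after HBSS and 8.25, 7.78, 5.28 and 4.84 after BSA. Cldn4 read 8.27, 8.04, 6.02 and 6.07 after HBSS and 8.52, 8.44, 6.50 and 5.76 after BSA. In both genes the upper arrays of the vehicle group came near the levels that the agents gave at 3 h, which began at 8.11 for Sfn and 7.76 for Cldn4.

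Fosl1 read 6.31, 6.34, 4.00 and 4.38 after HBSS at 12 h and 6.77, 6.83, 4.00 and 4.95 after BSA, again with replicates 1 and 2 on top, though all below the lowest 3 h value of the agents (7.54). Its second probe set read 5.24, 5.17, 4.00 and 4.00 after HBSS and 5.69, 5.18, 4.00 and 4.00 after BSA, in the same order but under the noise level. Ccl20 read 7.97, 8.01, 5.28 and 6.49 after HBSS and 8.45, 7.70, 4.65 and 4.00 after BSA. It had the widest range of the 10 genes over these 8 arrays, 4.45, from the floor to 8.45. Artn read 5.90, 6.15, 4.91 and 5.06 after HBSS and 6.49, 6.43, 5.37 and 5.29 after BSA, a narrower range of 1.58 with the same arrays on top.

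The other 4 genes did not follow this order. Gjb2 ran from 6.67 to 7.33 over the 8 arrays, Fgfbp1 from 8.82 to 9.37, Dsc2 from 4.35 to 4.96 under the noise level, and Krt15 stayed at the floor. The Gjb2 value of HBSS replicate 4, 7.11, was above that of replicate 1, 6.80. Their ranges were ordinary beside those of all genes, at the 53.2 percentile for Gjb2, 38.7 for Fgfbp1 and 47.1 for Dsc2.

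The spread among these 8 arrays was named in the rule that set out the genes. It and the shares of all genes given here are thus a description, and nothing is read from the counts. For Fosl1, Prss22, Cldn4, Sfn, Ccl20 and Artn, all 4 arrays of replicates 1 and 2 stood above all 4 of replicates 3 and 4, an order that 4.00% of all genes showed. The gap between the lowest upper array and the highest lower one was 2.06 for Prss22, 2.01 for Sfn, 1.54 for Cldn4, 1.36 for Fosl1, 1.21 for Ccl20 and 0.54 for Artn. Their ranges over the 8 arrays were between the 95.9 percentile (Artn) and the 99.9 percentile (Ccl20) of all genes. In each 12 h group alone, 7 of the 10 genes had replicates 1 and 2 on top, which 18.1% of all genes showed in HBSS and 20.3% in BSA. As a median over the 10 genes the range within a group was 1.99 in BSA 12 h and 1.75 in HBSS 12 h, against 0.36 to 0.68 in the other 4 groups. The median range of all genes was 0.48 in BSA 12 h and 0.35 in HBSS 12 h.

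In the BSA 12 h group the upper pair belonged to the high technical set and the lower pair to the low set. In the HBSS 12 h group all 4 arrays belonged to the low set, and the same split was present there. The labels give no batch, day or cage for these replicate numbers.

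**Figure D2:**
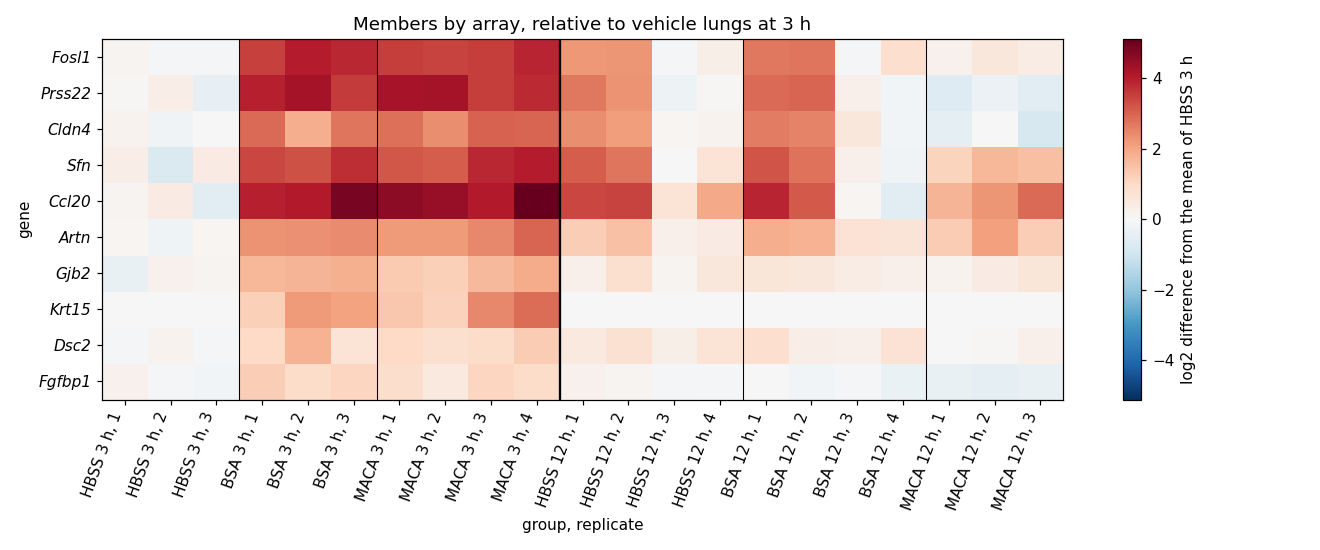
Rows are the 10 genes and columns the 21 arrays by group and replicate, coloured by the log2 difference from the mean of the HBSS 3 h arrays (red higher, blue lower). The 3 h MACA and BSA columns are red throughout, and at 12 h replicates 1 and 2 of both BSA and HBSS are redder than replicates 3 and 4 in the rows of Fosl1, Prss22, Cldn4, Sfn, Ccl20 and Artn.

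Markers of other cells were read in the same arrays. Over 10 markers common to epithelial cells, all over noise in every group, the summed intensity at 3 h was 18976 to 22281 after MACA, 19739 to 20205 after BSA and 13433 to 14289 after HBSS. These sums moved with the members and did not overlap with vehicle. The markers include Krt8, Krt18 and Krt19, which are also stress-responsive and held most of these sums and of their gap from vehicle. No sum was taken without them. At 12 h the sums of replicates 1 to 4 were 17990, 17065, 14750 and 15010 after BSA and 16748, 17045, 14336 and 15525 after HBSS, higher in the upper pair of both groups. The sum of 9 airway secretory and ciliated markers ran the other way, at 21781, 24675, 37899 and 37688 after BSA and 27198, 25955, 34477 and 43796 after HBSS. The sum of 11 alveolar markers was also lower in the upper pair of both groups, at 68134, 62424, 70298 and 70400 after BSA and 64228, 57809, 64960 and 67231 after HBSS. Over all 3 h arrays it ran from 65729 to 71303. The sum of 10 macrophage and monocyte markers was higher in the upper pairs, at 8490, 7536, 6588 and 6173 after BSA and 6547, 6567, 6270 and 5123 after HBSS. That of 9 neutrophil markers was higher in the upper pair after HBSS (2773 and 2434 against 2278 and 894) and overlapped after BSA (6585 and 2688 against 3292 and 2668). Among 15 markers of basal and stratified squamous epithelium, Krt4, Krt5, Krt13, Krt14, Trp63, Dsc3, Pkp1 and Sprr3 were under the noise level in every group. Their sum was 398 and 422 in the upper BSA pair against 224 and 256 in the lower, and 340 and 311 against 206 and 164 after HBSS. A gap of about that size lay in Sprr1a alone, a cornified envelope protein of squamous and stressed epithelium. At 12 h Sprr1a read 8.21, 8.01, 5.23 and 5.72 after BSA and 7.45, 7.40, 5.19 and 5.06 after HBSS, so that the upper pairs lay far over the noise level and the lower pairs under it, in the order of the members. At 3 h the neutrophil sums were 7544 to 11402 after MACA, 1023 to 3760 after BSA and 903 to 3452 after HBSS. The part of these cell types in the members' levels was not tested.

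**Figure D3:**
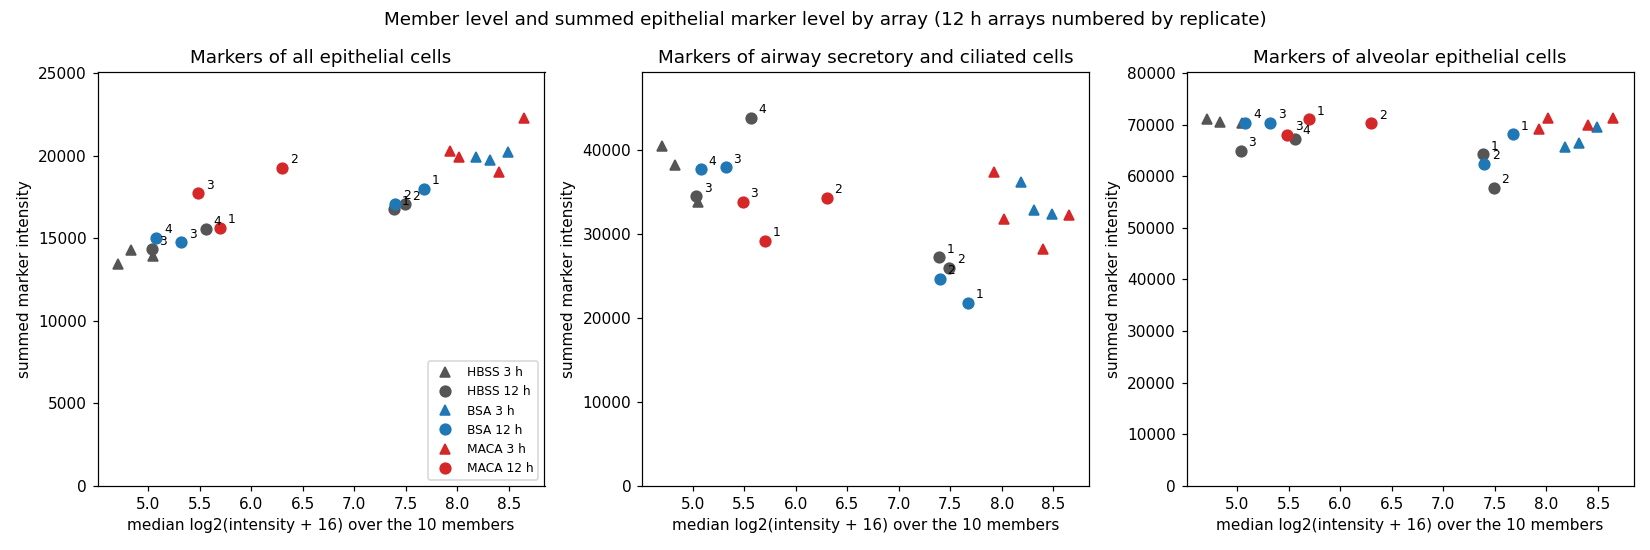
Each point is 1 array, with the median log2(intensity + 16) over the 10 genes on the x axis and the summed intensity of a marker list on the y axis. At 12 h the BSA and HBSS arrays numbered 1 and 2 lie to the right (medians of 7.39 to 7.67) with higher general epithelial and lower airway marker sums than those numbered 3 and 4 (5.03 to 5.56).

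The 12 h comparisons between agents used arrays that the choice by 3 h levels did not, though the spread of BSA and HBSS at 12 h was named beforehand. They were tested with limma over all 12393 genes, with Benjamini-Hochberg adjustment and a threshold of 0.05. The p-values measure only the spread between these samples. Of the 10 genes, 1 passed for MACA against HBSS and 0 for the other pairs of agents. Fgfbp1 read 8.77, 8.66 and 8.77 after MACA, 9.18, 9.02, 9.11 and 8.82 after BSA and 9.37, 9.32, 9.05 and 9.11 after HBSS. The MACA arrays all lay below the vehicle arrays and below the BSA arrays. Fgfbp1 fell by 0.48 ± 0.13 (SE, 95% interval -0.76 to -0.20, limma adjusted p = 0.0174) in MACA against HBSS, where 10.1% of all genes were called lower. Without MACA replicate 2 the call ended (-0.44, limma adjusted p = 0.0772), and it also ended in a fit with a term for the technical set (-0.39, limma adjusted p = 0.163). Marker sums of other tissues also differed without overlap between MACA and HBSS at 12 h. They were lower after MACA for 5 fat markers (130 to 233 against 949 to 2820) and 10 muscle markers (5162 to 6814 against 8779 to 14326), and higher for macrophages and monocytes (7292 to 9272 against 5123 to 6567), neutrophils (4047 to 8008 against 894 to 2773) and 7 markers of thymus and lymph node (493 to 620 against 115 to 270). Of the defining fat markers, Adipoq was under the noise level after MACA, and Lep and Retn were under it in both groups. Their part in the members' differences was not tested. No fit within 1 set was possible, since at 12 h all MACA arrays were in the high set and all HBSS arrays in the low set.

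Prss22 and Cldn4 had larger differences from vehicle than Fgfbp1 without passing the test. Prss22 read 4.66, 5.02 and 4.74 after MACA at 12 h, under the noise level and below all 8 BSA and HBSS arrays. Prss22 and Fgfbp1 were the 2 members below BSA without overlap, as were 10.6% of all genes. Prss22 was -1.73 ± 0.76 from HBSS, with a limma adjusted p of 0.121, and -2.02 ± 0.76 from BSA, adjusted p of 0.105 (limma). With MACA under the noise level, the bounds on these differences were at least 1.63-fold and at least 2.00-fold lower. Cldn4 read 5.45, 5.89 and 5.08 after MACA, below all vehicle arrays and overlapping with BSA replicate 4. It was -1.63 ± 0.64 from HBSS (limma adjusted p = 0.0845) and -1.83 ± 0.64 from BSA (limma adjusted p = 0.0831). These genes thus missed the threshold. The 4 members below vehicle without overlap were Prss22, Cldn4, Dsc2 and Fgfbp1, where 17.7% of all genes had MACA below HBSS without overlap. All 4 had been above vehicle at 3 h, which the choice of genes fixed. Of the 1247 genes with MACA above HBSS at 3 h without overlap, 74 were below it at 12 h without overlap. These 74 are 0.597% of all genes, a share that is no background for genes chosen by their 3 h order.

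The size of the Prss22 and Cldn4 differences rested largely on BSA and HBSS replicates 1 and 2, and that of Fgfbp1 less so. Without those 4 arrays, an alternative chosen after seeing the data and given with no test, Prss22 was -0.43, Cldn4 -0.57 and Fgfbp1 -0.35 from HBSS, and the median of the 10 genes was 0.02 in place of -0.31. Within the high technical set, where the 3 MACA arrays meet the upper pair of BSA arrays alone, 4 genes were lower after MACA, where 2.20% of all genes were called lower. They were Fosl1 (-2.33, limma adjusted p = 0.00023), Prss22 (-3.46, limma adjusted p = 0.00027), Cldn4 (-3.01, limma adjusted p = 0.00263) and Sfn (-1.54, limma adjusted p = 0.0469). For these genes leaving out the lower BSA pair set much of the size. With all BSA arrays these genes did not pass, at -1.17 for Fosl1, -2.02 for Prss22, -1.83 for Cldn4 and -0.06 for Sfn. Nothing more is read from these 4 calls. When the fit held a term for the technical set, Prss22 was lower after MACA than after HBSS (-3.44, limma adjusted p = 0.0134) and than after BSA (-2.88, limma adjusted p = 0.0248), and Cldn4 than after HBSS (-2.60, limma adjusted p = 0.0433). Only MACA 3 h and BSA 12 h held arrays of both sets, and in BSA 12 h the sets were the 2 tiers. The term thus carried part of the BSA tier gap over to HBSS, whose own tiers lay within the low set. The calls against HBSS cannot tell agent from set. In that fit 7.92% of all genes were called lower after MACA than after HBSS and 3.39% than after BSA.

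Fosl1 was 4.30, 4.67 and 4.44 after MACA at 12 h, all under the noise level, and its group overlapped with both others. It was -0.79 ± 0.62 from HBSS (limma adjusted p = 0.419), and 0.28 without the 4 upper BSA and HBSS arrays, with no test. Sfn read 6.15, 6.71 and 6.57, Ccl20 6.32, 6.83 and 7.47, and Artn 5.95, 6.75 and 5.89 after MACA. All 9 values were over the noise level. Those of Sfn lay in the gap between the tiers of vehicle arrays, those of Ccl20 within the vehicle range, and those of Artn overlapped with it and reached above it. Their differences from HBSS were -0.16 ± 0.79 for Sfn (limma adjusted p = 0.941), -0.06 ± 0.88 for Ccl20 (1) and 0.69 ± 0.35 for Artn (0.183). Without the 4 upper BSA and HBSS arrays they were 1.12 for Sfn, 0.99 for Ccl20 and 1.21 for Artn, again with no test. Gjb2 read 6.70, 6.94 and 7.14 after MACA, within the range of vehicle, and differed by -0.06 ± 0.19 (limma adjusted p = 0.892). Dsc2, at 4.08, 4.16 and 4.36, was below vehicle without overlap but under the noise level in both groups (-0.47 ± 0.21, limma adjusted p = 0.133).

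BSA and HBSS at 12 h overlapped for all 10 genes, while 4.37% of all genes had BSA above and 3.95% had it below without overlap. Their differences ran from -0.74 (Ccl20) to 0.39 (Artn), and limma called 0 of the 10, with 0 also at an unadjusted p under 0.05. Of all genes, 0.557% were called higher and 0.791% lower, and 16.9% had an unadjusted p under 0.05. The interval for Prss22 ran from -1.19 to 1.77, and from -0.75 to 1.33 with the replicate number as a block (limma adjusted p = 0.815), in which 0 of the 10 were called as well. Between same-numbered arrays Prss22 differed by 0.18, 0.66, 0.51 and -0.19 (BSA minus HBSS, replicates 1 to 4). Artn was higher after BSA in all 4 pairs, by 0.59, 0.28, 0.46 and 0.23, with a blocked difference of 0.39 ± 0.32 (limma adjusted p = 0.565). For MACA against BSA limma called 0 of the 10, with 4 at an unadjusted p under 0.05 (Prss22, Cldn4, Dsc2 and Fgfbp1), where 24.5% of all genes were. By the adjusted p, 4.07% of all genes were called higher and 5.58% lower after MACA than after BSA.

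**Figure D4:**
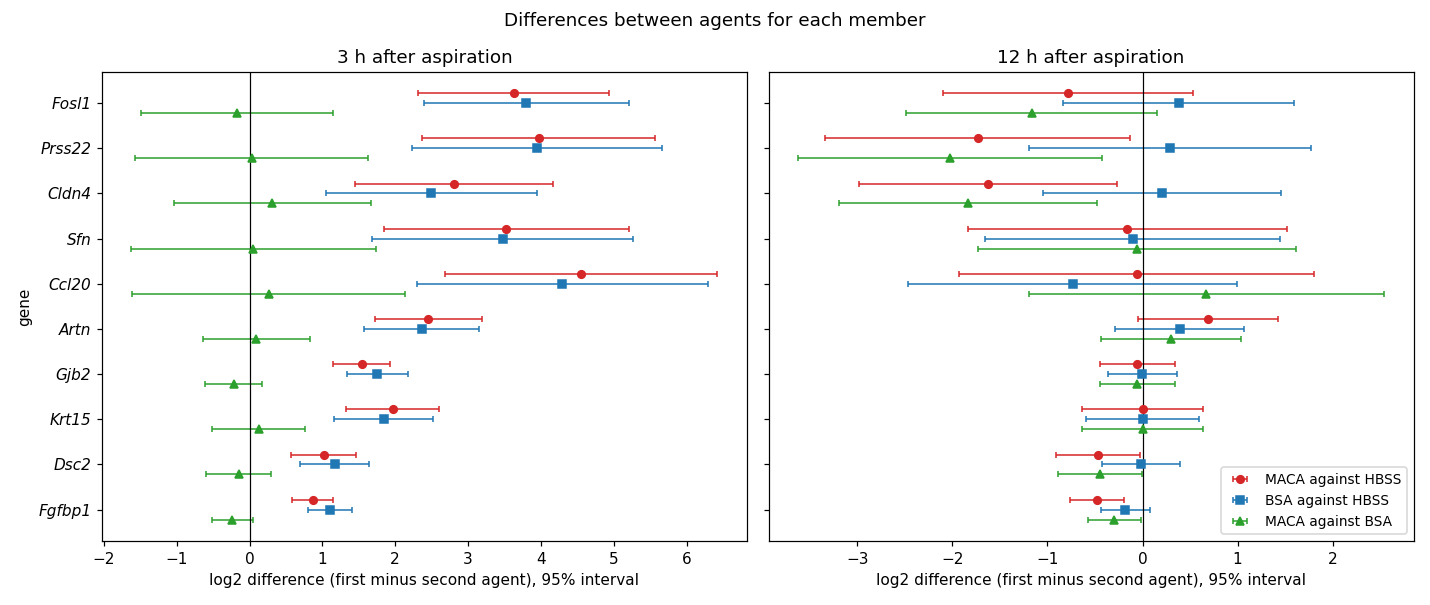
For each of the 10 genes the points give the log2 difference between 2 agents with its 95% interval, at 3 h on one panel and at 12 h on the other. At 3 h both differences from HBSS lie to the right of 0 and that between MACA and BSA near 0, and at 12 h most intervals cross 0 while that of Fgfbp1 for MACA against HBSS lies to the left.

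The order of the 6 groups had a common top and differed below it. MACA 3 h and BSA 3 h were the highest groups, with overlapping arrays, for all 10 genes. For Fosl1, Prss22 and Cldn4 the MACA 12 h and HBSS 3 h groups had the lowest means and overlapped for Prss22 and Cldn4 but not for Fosl1, while the BSA 12 h and HBSS 12 h arrays ran from that level up towards the top. For Sfn, Ccl20 and Artn the HBSS 3 h group was the lowest and MACA 12 h stood above it without overlap. Fgfbp1 was lowest in MACA 12 h, below every other array.

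Over the 21 arrays the 45 pairs of members correlated at a Pearson r of 0.65 to 0.97, with a median of 0.82. The arrays share the 3 h contrast that chose the genes, so this is a description. Fosl1 followed the mean standardised profile of the 10 genes most closely (r = 0.98) and Dsc2 least (0.84). Of 9296 other genes over the noise level in a group, the 8 closest to that profile were Mboat1 (r = 0.97), Lad1 (0.96), Gadd45a (0.95), Chac1 (0.95), Rcan1 (0.92), Slc7a5 (0.92), Plpp2 (0.91) and C77080 (0.91). Lad1 encodes ladinin, a protein of the epithelial basement membrane zone, Gadd45a a growth arrest factor induced by DNA damage and stress, Chac1 a glutathione-degrading enzyme of the integrated stress response, and Slc7a5 a large amino acid carrier. Slc7a5 ran from 8.36 to 8.82 after MACA and from 8.50 to 8.71 after BSA at 3 h against 5.61 to 6.13 after HBSS, and from 5.34 to 7.59 in vehicle lungs at 12 h. Mboat1, a membrane acyltransferase, had a smaller span, with 8.81 to 8.96 and 8.92 to 8.97 at 3 h against 7.33 to 7.58 in vehicle.

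Genes of the same families and pathways were read from lists, with calls by limma at an adjusted p under 0.05. Most other AP-1 factors were higher after MACA than after BSA at 3 h. Fosl1 was chosen for standing high after both agents and is not set against them. Of 12 measured, 7 rose in MACA against HBSS at 3 h, where 4.84% of all genes were called higher, and 0 moved in BSA against HBSS, where 0.161% were called higher and 0.0161% lower (0 of 12 also at an unadjusted p under 0.05). The median difference of the 12 from vehicle was 0.90 after MACA and 0.24 after BSA. Directly between the agents, 8 of the 12 were higher after MACA, against 3.50% of all genes. Junb read 10.31, 10.59, 10.85 and 11.30 after MACA at 3 h, 8.86, 9.06 and 9.16 after BSA and 8.60, 8.67 and 8.24 after HBSS. Its MACA arrays all lay above its BSA arrays. Junb rose by 2.26 ± 0.26 over vehicle (limma adjusted p = 8.2e-05) and was 1.74 ± 0.26 above BSA (limma adjusted p = 0.00134). Atf3, a stress-induced partner, was 2.05 ± 0.32 above BSA (limma adjusted p = 0.00148) and 0.25 ± 0.34 apart between BSA and HBSS (limma adjusted p = 0.862). Without scaling between arrays 1 of the 12, Junb, stayed higher after MACA than after BSA, and 5 did in a fit with a term for the technical set. At 12 h 3 of 12 rose in MACA against HBSS, where 10.2% of all genes did: Junb (1.48), Batf3 (1.24) and Maff (0.99). Without scaling 2 were called higher and 5 lower, and Maff lost its call.

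Among genes of the EGF receptor and ERK pathway, which lies upstream of Fosl1, 7 of 17 rose and 1 fell in MACA against HBSS at 3 h. There 4.84% of all genes were called higher and 3.28% lower. In BSA against HBSS limma called 0 of the 17, with 6 at an unadjusted p under 0.05. Since only 0.161% of all genes were called higher and 0.0161% lower there, little is read from that 0. Egr1, an immediate early factor, rose by 2.38 ± 0.31 after MACA (limma adjusted p = 0.000175) and was 1.00 ± 0.33 above vehicle after BSA without passing (limma adjusted p = 0.246). At 12 h Hbegf, an EGF receptor ligand, rose after MACA (0.93), and Dusp1 (-0.56) and Spry2 (-0.50), which dampen ERK signalling, were among the 3 of 17 that fell, where 10.1% of all genes did. With a term for the technical set 0 of the 17 were called lower, so all 3 of these calls ended while that of Hbegf held, and without scaling 8 were called lower and 0 higher.

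Some keratins of simple epithelium rose after both agents. Of 15 keratins other than Krt15, 4 rose after MACA at 3 h (Krt8, Krt16, Krt18 and Krt19) and 3 after BSA (Krt8, Krt16 and Krt18), with Krt16 under the noise level and 0 called in either comparison without scaling between arrays. At 3 h 4.84% of all genes were called higher after MACA and 0.161% after BSA. Krt8 read 12.18, 12.28, 12.18 and 12.35 after MACA, 12.05, 12.13 and 12.15 after BSA and 11.43, 11.50 and 11.54 after HBSS. It rose by 0.75 ± 0.10 after MACA (limma adjusted p = 0.000202) and by 0.62 ± 0.11 after BSA (limma adjusted p = 0.0182). Of 13 genes of transitional alveolar epithelium, a state between type II and type I cells that includes Krt8, 7 rose after MACA and 3 after BSA at 3 h (0 and 0 without scaling), with a median difference of 0.68 and 0.47. Krt8 and Krt18 were called after both agents and Krt19 after MACA, so these keratins are counted again here. Clu, a secreted chaperone in that list, rose by 0.99 ± 0.19 after MACA and by 1.11 ± 0.20 after BSA. At 12 h 5 of the 13 rose in MACA against HBSS, led by Tubb6 (1.23), Hbegf and Lgals3 (0.41), where 10.2% of all genes did. Without scaling 0 of the 13 were called higher and 3 lower, and with a term for the technical set the calls held for Tubb6 and Hbegf and ended for Lgals3. At 12 h 5 of the 13 had replicates 1 and 2 above replicates 3 and 4 in both 12 h groups, an order of 6.83% of all genes.

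Other junction genes were called in both directions after MACA. In 14 other desmosome and adherens junction genes, 1 rose after MACA at 3 h and 4 fell at 12 h, among them Dsg2 (-0.88), Dsp (-0.76) and Perp (-0.34), where 10.1% of all genes fell (without scaling 8 were called lower, and with a term for the technical set the call of Perp ended). Of 20 other tight and gap junction genes, 2 rose and 4 fell after MACA at 3 h (3.28% of all genes fell), and limma called 0 after BSA, with 5 at an unadjusted p under 0.05. At 12 h Tjp3 (1.05), a tight junction scaffold, and Gja4 (0.78), an endothelial connexin, rose, and Cldn23 (-1.39) fell. Without scaling both rises lost their calls and 9 of the 20 were called lower, among them Cldn23. Of 17 cornified envelope and serine protease genes, 4 rose after MACA at 3 h and 0 after BSA by limma (5 at an unadjusted p under 0.05). At 3 h 4.84% of all genes were called higher after MACA and 0.161% after BSA. Tgm1, a transglutaminase that crosslinks the envelope, was 1.65 ± 0.20 above vehicle after MACA (limma adjusted p = 9.1e-05), 0.47 ± 0.21 after BSA (limma adjusted p = 0.435), and at 12 h at least 2.38-fold above vehicle after MACA (limma adjusted p = 0.000101).

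For the secreted members, 14 receptors and partners were measured. In MACA against HBSS 2 of them fell at 3 h and 3 fell at 12 h, Fgfr3 (-0.84), Fgf7 (-0.62) and Fgf1 (-0.34), 2 of which are growth factors that Fgfbp1 can carry, and 0 rose. Of all genes 3.28% fell at 3 h and 10.1% at 12 h. With a term for the technical set all 3 of the 12 h calls ended, and without scaling 0 were called at 3 h and 6 at 12 h. Ccr6, the receptor of Ccl20, differed between MACA and HBSS by -0.12 ± 0.18 at 3 h (limma adjusted p = 0.768) and -0.31 ± 0.18 at 12 h (limma adjusted p = 0.273). Against BSA at 12 h 2 of the 14, Ccr6 and Fgf1, were called lower after MACA, where 5.58% of all genes were. Without scaling 0 of the 14 were called in that comparison, and with a term for the technical set Fgf1 alone was. Gfra3, the receptor of Artn, stayed close to noise at 4.61 to 6.54 over all arrays. Of the 6 other 14-3-3 genes, relatives of Sfn, 0 passed limma for either agent at either time (at most 1 at an unadjusted p under 0.05), although 5 fell in MACA against HBSS at 12 h without scaling. Of 10 p53 target genes, the class to which Sfn belongs, 0 passed limma after either agent at 3 h (3 after MACA and 0 after BSA at an unadjusted p under 0.05), and 3 fell in MACA against HBSS at 12 h, Trp53inp1 (-0.88), Ccng1 (-0.53) and Perp (7 were called lower without scaling). Of 20 epithelial wound and migration genes, 6 rose and 1 fell in that comparison, led by Lcn2 (1.94), Tnc (1.76) and Serpinb2 (1.01), and at 3 h 6 rose after MACA and 1, Clu, after BSA. Of all genes 10.2% rose and 10.1% fell in MACA against HBSS at 12 h. At 3 h 4.84% rose after MACA and 0.161% after BSA. Clu and Lgals3 are also in the list of transitional alveolar epithelium. With a term for the technical set the 12 h call held for Tnc and ended for Lcn2, Serpinb2 and the 1 gene that fell. Without scaling 3 of the 20 were called higher and 5 lower at 12 h, and 1 was called higher after MACA at 3 h.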

How the data were processed

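The deposited columns hold array intensities on a linear scale, 1 column per array with 22690 probe sets, per the file headers. Between 9.37% and 11.1% of an array's values lie below 0. No source used here names the scanner software, the summary method or a scaling, and array medians up to 3.08 times apart show that the arrays were not at one level. Here 64 control probe sets were left out, arrays were quantile normalized to one distribution, negative intensities were raised to 0, and 16 was added before the log2, so that folds of dim genes come out too small. The noise level is taken from the negative values (95th percentile of their size). The platform annotation gave 1 symbol to 20380 of 22626 probe sets, several to 691 and none to 1555, and the brightest probe set per gene was used. limma (3.58.1, R 4.3.3) fitted 6 group means to 21 arrays with 15 residual degrees of freedom, and the steps were tested on simulated data. Whether replicate numbers pair BSA and HBSS at 12 h is not stated, and the data did not bear out a pairing by number. Deviations of same-numbered arrays correlated at 0.136 to 0.339. Yet BSA replicate 1 matched HBSS replicate 2 best and BSA replicate 3 matched HBSS replicate 4, while BSA replicates 2 and 4 matched their own number. The replicate block called the same 0 members. The members, lists and tests were chosen with earlier results of these data known. By rule, all 10 members, up to 3 called and 2 other genes per list by size in MACA against HBSS at 12 h and the 8 genes most like the members are named. List genes named for 3 h and receptors were chosen after their values were seen. Alternatives were no scaling, median scaling, pseudocounts of 4 and 64, a noise filter, all probe sets, 12 h arrays alone, the technical set, the replicate block, intensity trend and leaving out each array. Versions of python (3.11.15) and matplotlib (3.10.9) made the figures. No 2 arrays held identical values (0 pairs).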

Additional observations from a re-analysis of the deposited data

Results flagged for a closer look

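For 4 of the 10 genes every MACA array lay above every HBSS array at 3 h and below every HBSS array at 12 h. The change of the difference between the times was not tested, because the 3 h arrays chose the genes and so fixed the 3 h order. The 3 h order occurred in 1247 genes and both orders together in 74, or 0.597% of all genes. That share is no background for genes chosen by the 3 h order. At 12 h the difference was -1.73 for Prss22 (its MACA arrays under the noise level), -1.63 for Cldn4, -0.47 for Dsc2 (under the noise level) and -0.48 for Fgfbp1. The second probe set of Dsc2 overlapped with vehicle at both times and differed by 0.09 at 12 h. In the groups of 4 arrays, 28 gene and group combinations were examined for a single array far from the others, and 0 were found.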

How the results depend on the processing

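The 1 member called for MACA against HBSS at 12 h became 4 with no scaling between arrays (Prss22, adjusted p = 0.0478, Cldn4, 0.0275, and Dsc2, 0.022, joined Fgfbp1, limma), 2 with the technical set as a term, 3 with the replicate block (adding Prss22, -2.06, and Cldn4, -1.89) and 0 to 2 when 1 array was left out (0 without MACA replicate 2, and Cldn4 added without HBSS replicate 3). The 0 called for MACA against BSA at 12 h became 1 (Cldn4) with only genes over noise, 1 with the set term, 4 within the high set, 2 with the replicate block (Prss22, -2.35, and Cldn4, -2.10) and 0 to 1 when 1 array was left out (Cldn4, -2.35, without BSA replicate 4). Of BSA 12 h the high set holds only the upper pair. For the MACA comparisons same-numbered arrays did not deviate together (correlations of -0.136 to 0.144). BSA against HBSS kept 0 members in every setting run. The 3 h median was 3.33 for BSA with a pseudocount of 4 and 1.66 for MACA with 64, and the median 12 h range of the members was 1.08 with 64. Under other settings 20 of 488 member differences changed sign. The 488 include the called differences and the 3 h ones, which are large against vehicle by the choice of genes. With 1 array left out 35 of 220 changed sign, all of them 12 h differences. No called difference changed sign, and those that did had a main size of at most 0.67. Without BSA and HBSS replicates 1 and 2, which these counts leave out, Fosl1 for MACA against HBSS went from -0.79 to 0.28.

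Over all genes, 2509 passed for MACA against HBSS at 12 h (1258 higher, 1251 lower), 167 for BSA against HBSS (69 and 98) and 1196 for MACA against BSA (504 and 692). With no scaling these were 5574 (162 and 5412), 2059 (6 and 2053) and 96 (30 and 66), and the median of all genes moved to -0.57, -0.45 and -0.10. Other counts over 1.5 times apart were, for MACA against HBSS, 3857 with all probe sets and 1366 without MACA replicate 2. For BSA against HBSS they were 63 with median scaling, 267 with all probe sets, 18 with 12 h arrays alone, 1493 with the set term, 283 within the low set, and 4 (without HBSS replicate 2) to 338 (without BSA replicate 2) with 1 array left out. For MACA against BSA they were 742 with 12 h arrays alone, 760 with the set term, 429 within the high set and 398 (without MACA replicate 2) to 1670 with 1 array left out. Dim genes limit the folds: Krt15 and Dsc2 lie at or near noise, and Fosl1, Prss22, Sfn, Ccl20 and Artn have vehicle values under it.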
